A study of Mus musculus with 8 samples.

Results

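Accessible regions (ATAC-seq peaks) annotated to 7 genes were followed in liver sinusoidal endothelial cells (LSECs) with and without Maf: Caap1, Zmat4, Gm4301, C330024D21Rik, Eno1b, Sucla2 and Akap2. A peak belonged to a gene when the deposited table named that gene as the one with the nearest transcription start, which gave 42 of 58522 listed peaks and 7 of 17780 genes. The genes were selected on the measured values themselves, because each has a single peak or a peak sum with strongly lower counts in the knockout. All differences between the groups are therefore descriptions of the selected regions and are not used as evidence. Among the peaks of a gene that were lower in the knockout, the one with the smallest p in the edgeR test described below is called its lead peak. In each of the 7 genes it was also the peak with the lowest log2 fold change.

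Controls were littermates that carried no Cre (Clec4g-iCre wt/wt) and floxed Maf on one or both alleles (Maf fl/fl or fl/wt). MafLSEC-KO animals carried Clec4g-iCre tg/wt with Maf fl/fl, so that the Cre was expressed from sequences of the LSEC gene Clec4g. All mice were 12 weeks old. Cells were obtained by magnetic selection for the endothelial surface protein CD146, which also retains endothelium of the larger hepatic vessels, and 50000 cells were tagmented with Tn5 transposase. Each group held 4 libraries while the labels name 3 mice, and liver tissue of 3 mice was pooled in the isolation, so that SDs and SEs describe differences among libraries that could be technical only.

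c-Maf, the product of Maf, is a basic leucine zipper transcription factor that binds MAF recognition elements (MAREs), palindromes whose arms contain TGCTGA, around a core shared with AP-1 or CREB sites. In ATAC-seq, Tn5 inserts adapters preferentially into open DNA, and many regulatory elements lie far from gene starts, where they may act on a gene other than the nearest. The gene names below are thus addresses assigned by distance. Caap1 encodes an inhibitor of caspase activity and apoptosis, Sucla2 the beta subunit of the ADP-forming succinyl-CoA synthetase of the citric acid cycle, and Akap2 an anchoring protein that holds protein kinase A in place. Zmat4 encodes a zinc finger protein of the matrin type, Eno1b is an enolase gene that arose by retrotransposition, C330024D21Rik (also Bendr) is a long noncoding RNA and Gm4301 a predicted gene within a row of predicted genes.

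The sequence of 6 lead peaks is shown so that the most depleted region of each of these genes can be read for MARE letters, whose presence or absence was not used to choose them. Windows of 200 bases from the centre of the peak are given for Caap1, Zmat4, Gm4301 and C330024D21Rik, and shorter windows around a match for Sucla2 and Akap2, from GRCm38.p6, the assembly of mm10. Capitals mark TGCTGAC, or the looser match of TGCTGA, any 4 bases and GC.
Caap1 peak 1, chr4:94385775-94385974, plus strand: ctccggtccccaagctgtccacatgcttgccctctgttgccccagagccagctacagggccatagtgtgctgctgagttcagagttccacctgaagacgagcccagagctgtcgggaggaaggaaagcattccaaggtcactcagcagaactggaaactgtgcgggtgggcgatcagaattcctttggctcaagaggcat
Zmat4 peak 4, chr8:23956864-23957063, plus strand: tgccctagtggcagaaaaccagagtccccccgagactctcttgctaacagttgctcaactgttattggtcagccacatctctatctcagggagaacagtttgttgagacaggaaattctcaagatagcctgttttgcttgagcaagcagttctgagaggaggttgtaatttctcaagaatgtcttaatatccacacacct
Gm4301 peak 1, chr10:100199144-100199343, plus strand: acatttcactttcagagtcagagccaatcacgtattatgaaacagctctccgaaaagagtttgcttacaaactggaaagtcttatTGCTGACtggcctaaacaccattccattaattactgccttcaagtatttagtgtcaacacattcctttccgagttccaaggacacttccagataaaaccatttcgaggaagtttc
C330024D21Rik peak 2, chr5:67488131-67488330, plus strand: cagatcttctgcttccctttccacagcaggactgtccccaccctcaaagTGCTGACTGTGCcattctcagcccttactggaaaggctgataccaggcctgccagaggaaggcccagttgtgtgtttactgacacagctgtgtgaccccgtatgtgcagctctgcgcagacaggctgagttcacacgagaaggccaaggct
Sucla2 peak 3, chr14:73839012-73839073, plus strand: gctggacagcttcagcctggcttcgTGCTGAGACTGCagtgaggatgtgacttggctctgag
Akap2 peak 2, chr4:57765075-57765131, plus strand: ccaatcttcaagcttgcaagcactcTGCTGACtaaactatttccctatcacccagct
The matches in the C330024D21Rik window overlap, since TGCTGAC is the start of the looser match there. The windows of Caap1 and Zmat4 hold no capitals, although that of Caap1 contains the arm letters TGCTGA and their reverse complement TCAGCA in lower case.

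The letters TGCTGAC were found on either strand in 4 of the 7 lead peaks, those of Gm4301, C330024D21Rik, Eno1b and Akap2, and within the central 300 bases of 3 of them. Among all 58268 tested peaks, 6.01% held TGCTGAC in the central 300 bases. The looser match occurred in 2 lead peaks, 44 bases from the centre in C330024D21Rik and 304 bases from the centre in Sucla2, so that 1 lead peak held it in the central 300 bases, as did 1.78% of tested peaks. The complete palindromes, TGCTGA and TCAGCA separated by 1 base (T-MARE) or 2 bases (C-MARE), were in 0 of the 42 peaks over their whole length, and in 0.0275% and 0.0189% of tested peaks in the central 300 bases. The AP-1 letters TGACTCA, which can lie inside a T-MARE, were found in the central 300 bases of 0 lead peaks (8.57% of tested peaks), and 269 bases from the centre in Sucla2. The GATA letters AGATAA were in the central 300 bases of 2 lead peaks, Gm4301 and Eno1b (16.1% of tested peaks), and outside that window in Sucla2. An ETS motif (CCGG followed by AAGT, 1.83%) and a CTCF core motif (CC, any 3 bases, AGG, any base, GGC, 6.61%) were in 0 lead peaks, with shares again for the central 300 bases of tested peaks. The lead peaks of Caap1 and Zmat4 contained none of the 8 motifs as exact matches. The arm letters TGCTGA alone were not searched for. In the printed Caap1 window, TGCTGA is followed by 2 bases and TCAG, a C-MARE without its last letters, and TCAGCA occurs further on. The share of tested peaks with such partial matches was not counted. Among the other 35 peaks, 6 held TGCTGAC, 2 the looser match and 7 each AP-1 and GATA in the central 300 bases. Those with TGCTGAC were Caap1 peak 2, Zmat4 peaks 2 and 6, Eno1b peak 4 and Akap2 peaks 1 and 6. In the edgeR test, Caap1 peak 2 and both Zmat4 peaks were called lower and Akap2 peak 6 higher, while the others were not called. The looser match was in Akap2 peak 5, which was not called, and in Akap2 peak 6. A match describes the letters of the window and does not show that a factor is bound there.

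Total counts over the listed peaks ranged from 5.37 to 13.4 M in controls and from 6.78 to 11.6 M in MafLSEC-KO. Control replicates 1 and 3 were the shallowest libraries and lay at one end of the second principal component, with control replicate 4, the deepest library, at the other end, and calls that change without them are given with each gene. The accessible region at the start of Maf had 57.0 to 81.9 counts per M (CPM) in controls and 8.36 to 18.4 CPM in MafLSEC-KO. Maf is the floxed gene, and the extent of the deleted segment is not given in the sources used here. Deleted DNA and lower accessibility can therefore not be told apart at that region. All 8 LSEC marker genes had tested peaks, with peak sums called lower for Stab2, Fcgr2b and Lyve1 and higher for Clec4g, the gene from which the Cre transgene was built. Only MafLSEC-KO animals carried that transgene, so that any added copies of Clec4g sequence and higher accessibility cannot be told apart in this sum. Stab1 was called lower by DESeq2 (adjusted p = 0.0288) and with the replicate block (edgeR adjusted p = 5.95e-06), and Cdh5 higher with the block (edgeR adjusted p = 0.0217). Summed over the markers with tested peaks, hepatocyte genes (3 of 5, Alb without one) had 108 to 125 CPM in control LSECs and 111 to 128 CPM in MafLSEC-KO, and macrophage genes (4 of 5) had 91.1 to 110 CPM and 84.1 to 97.2 CPM. The corresponding ranges were 12.8 to 18 and 10.9 to 14.6 CPM for stellate cells (3 of 4), 16.5 to 39.7 and 18.4 to 41.6 CPM for lymphocytes (1 of 4), and 54.8 to 76.5 and 60.6 to 74.4 CPM for cholangiocytes (2 of 3). Among these 13 markers of other cell types, 0 were called by edgeR or DESeq2 at the threshold given below (0 had an unadjusted edgeR p under 0.05). Over all gene sums, edgeR called 4.05% lower and 5.65% higher. With the replicate number as a block, 1 marker (Cd5l) was called lower (edgeR adjusted p = 0.0403). Some of these sums were faint in controls, such as Dcn (1.65 ± 0.877 CPM) and Serpina1a (2.58 ± 0.938 CPM), where small differences were not detectable. The part of these cell types in the results was not tested. For this isolation, the paper reports a smaller share of LYVE1 or CD31 positive cells in MafLSEC-KO than in controls. Its share of CD11b positive cells was larger in MafLSEC-KO. Whether the ATAC-seq preparations were among those measured is not stated. In such bulk samples, fewer cells of a type and less accessibility per cell cannot be told apart.

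Across the 7 lead peaks, every MafLSEC-KO library lay below every control library. Control counts ran from 50 to 542 and MafLSEC-KO counts from 9 to 70, so that no lead peak was empty in the knockout. Mean accessibility of the lead peaks was 8.73 to 37.1 CPM in control LSECs and 1.15 to 6.57 CPM in MafLSEC-KO, a ratio of 4.57 to 7.57. Their log2 fold changes (MafLSEC-KO over control) were -2.91 to -2.19 with SEs of 0.17 to 0.29. Their control level lay between the 49.4th and 87.5th percentile of all tested peaks, and their knockout level between the 1.07th and 38.9th. Coefficients of variation between libraries were 8.94% to 19.7% in controls and 7.87% to 27.4% in MafLSEC-KO.

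**Figure D1:**
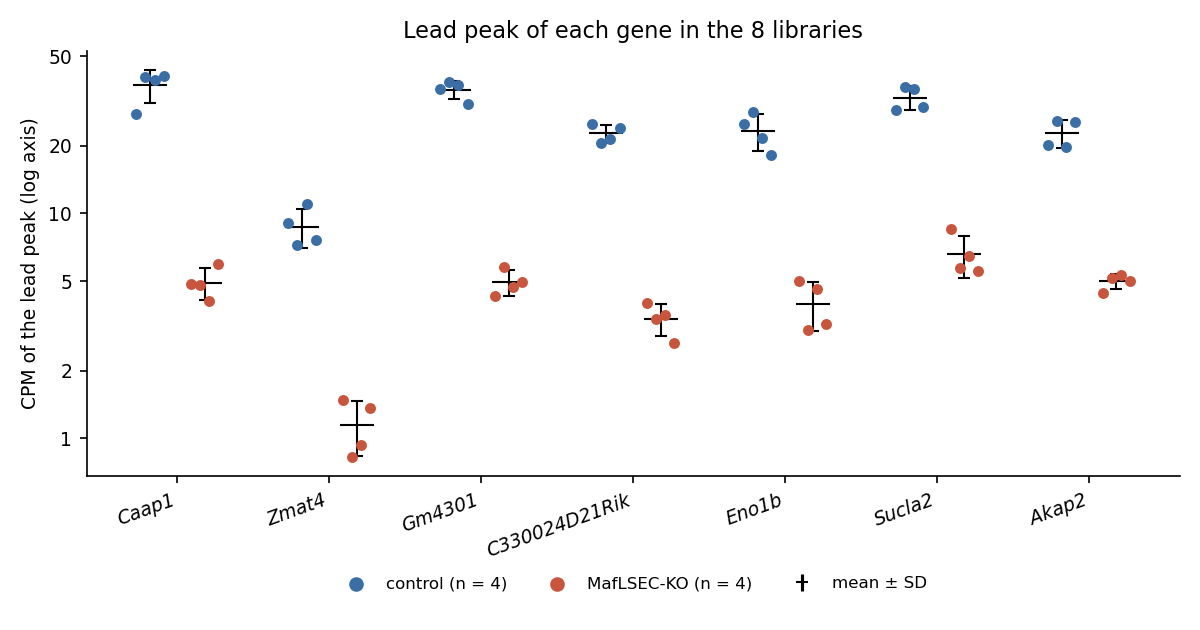
Accessibility of the lead peak of each gene in CPM on a log axis, with 1 point per library (4 control in blue, 4 MafLSEC-KO in red) and black lines for the mean ± SD. In each of the 7 lead peaks all red points lie below all blue points, from 8.73 to 1.15 CPM on average for Zmat4, the faintest, and from 37.1 to 4.93 CPM for Caap1, the strongest in controls.

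Counts were tested across all peaks with edgeR's quasi-likelihood test, and a peak was called at a Benjamini-Hochberg adjusted p under 0.05. In this contrast, 6.45% of tested peaks were called lower in MafLSEC-KO, 8.97% were called higher, and in 8.28% every MafLSEC-KO library lay below every control library, while in 11.2% every MafLSEC-KO library lay above. With the replicate number as a block, 6258 peaks in place of 3761 were called lower and 8264 in place of 5229 higher. Such a block assumes a pairing of libraries that the labels do not state. Of the 42 peaks of the 7 genes, all of which passed the filter on low counts, 16 were called lower, 3 higher and 23 were not called, and 17 showed no overlap downward. Since the genes were selected on this contrast, nothing is read from these shares. Without the lead peaks, 9 of 35 were called lower and 3 higher, with a median log2 fold change of -0.11 against -0.004 over all tested peaks. The numbering of the table skips 10 peaks between the first and last listed peak of these genes, and those were not analysed here.

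**Figure D2:**
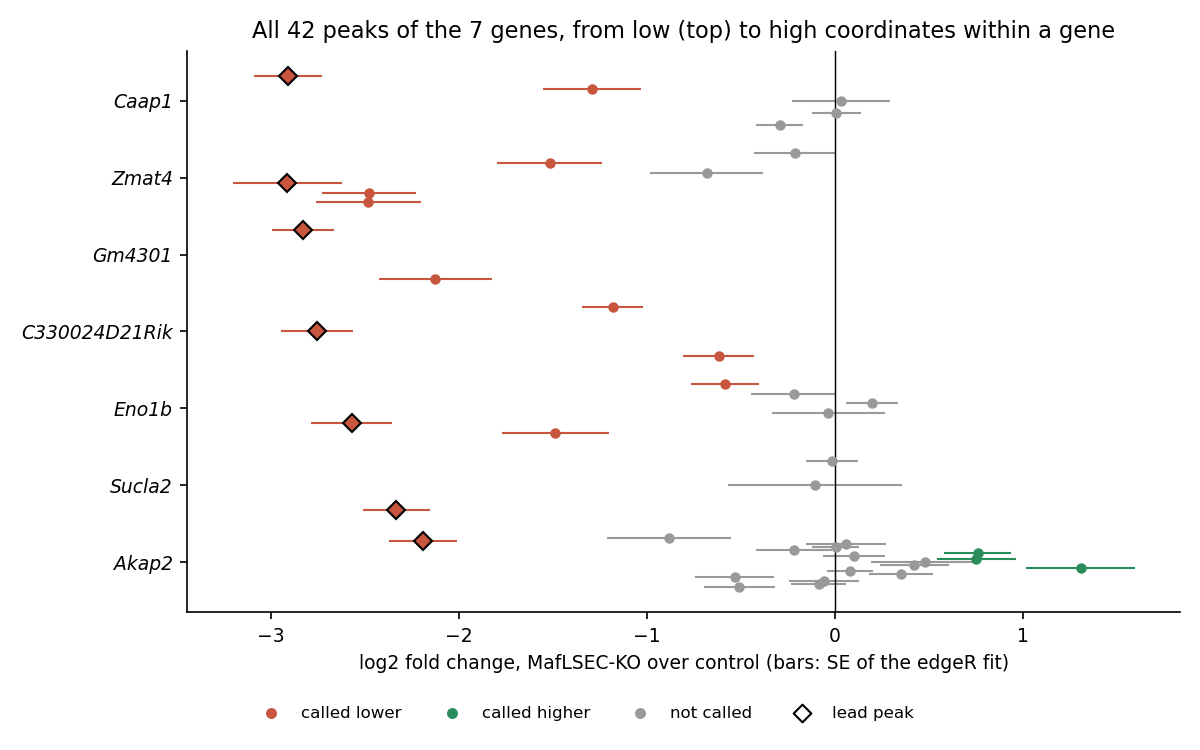
Log2 fold change (MafLSEC-KO over control, x axis) with its SE for each of the 42 peaks, grouped by gene and ordered by coordinate. Diamonds are lead peaks, red peaks were called lower (16), green higher (3, all of Akap2) and grey not called (23).

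Of the 5 peaks within introns of Zmat4, 4 were called lower, and a peak upstream of the gene was not called. Its lead peak, peak 4 (chr8:23956826-23957100, intron 5 of 6), had 50, 58, 63 and 101 counts in control replicates 1 to 4 and 10, 9, 9 and 16 counts in MafLSEC-KO replicates 1 to 4. This was 8.73 ± 1.72 CPM in control LSECs and 1.15 ± 0.316 CPM in MafLSEC-KO (SD, n = 4 libraries each), with a log2 fold change of -2.91 (SE 0.29). The lead peak lies 287 kb downstream of the transcription start.

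Peaks 5 and 6 of Zmat4, in the same intron and 32.3 kb and more from the lead peak, were almost as strongly reduced. Peak 5 had 44, 73, 57 and 143 counts in controls and 10, 15, 21 and 20 in MafLSEC-KO (log2 fold change -2.48, SE 0.25). Peak 6, which contains TGCTGAC at 2 places, had 34, 94, 56 and 162 counts in controls and 11, 26, 17 and 16 in MafLSEC-KO (log2 fold change -2.48, SE 0.28). In both, the highest knockout library remained below the lowest control library after scaling.

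Peaks 2 and 3 of Zmat4, in intron 4 of 7 of another transcript, are separated by 1815 bases and differed in their call. Peak 2 had 51, 64, 29 and 85 counts in controls and 11, 31, 30 and 26 in MafLSEC-KO (log2 fold change -1.52, SE 0.28), without overlap on the CPM scale. Peak 3 had 43, 43, 23 and 96 counts in controls and 17, 64, 25 and 47 in MafLSEC-KO, with overlapping groups, and was not called (log2 fold change -0.68, SE 0.30, edgeR adjusted p = 0.138). With the replicate number as a block its adjusted p was 0.0448, and with the log2 total as a covariate 0.0261. Peak 1, 73.2 kb upstream of the start, had 7.40 ± 0.985 CPM in control LSECs and 6.36 ± 1.15 CPM in MafLSEC-KO (log2 fold change -0.22, SE 0.22). Zmat4 thus had 4 of 6 peaks called lower, all 4 inside the gene, and no listed peak at its start.

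Both peaks of Gm4301 were depleted. The lead peak (peak 1, chr10:100198826-100199660) had 196, 309, 213 and 408 counts in controls and 29, 63, 45 and 58 in MafLSEC-KO, or 35.5 ± 3.39 and 4.93 ± 0.644 CPM (log2 fold change -2.83, SE 0.17). Peak 2, 766 bases further, had 32, 105, 56 and 90 counts in controls and 13, 30, 15 and 21 in MafLSEC-KO, or 8.86 ± 3.27 and 2.01 ± 0.524 CPM (log2 fold change -2.12, SE 0.30). The 2 peaks are intergenic and adjacent, and both groups of libraries were separated in each. The control libraries of peak 2 varied more, between 5.81 and 13.1 CPM.

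The Gm4301 lead peak lies 136 kb from the start of Gm4301, the first of several predicted genes in a row, and 184 kb beyond the start of Kitl, the gene of the ligand of the receptor KIT. Within 100 kb, 6 further peaks were annotated to Kitl, with log2 fold changes of -0.54 to 0.13, and 1 of them was called lower, with 2 more at 38.8 and 28.3 kb called lower under the replicate block (edgeR adjusted p = 0.0167 and 0.0454). The first, 59.7 kb from the lead peak, had 17.6 ± 1.64 CPM in control LSECs and 12.4 ± 1.54 CPM in MafLSEC-KO (log2 fold change -0.50, SE 0.16). Summed over its 19 peaks, Kitl had 252 ± 27.6 CPM in control LSECs and 233 ± 13.6 CPM in MafLSEC-KO (log2 fold change -0.11, SE 0.09) and was not called.

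All 3 listed peaks of the long noncoding RNA gene C330024D21Rik were called lower, to different degrees. The lead peak (peak 2, chr5:67487907-67488553, intergenic) had 137, 165, 123 and 317 counts in controls and 27, 37, 34 and 31 in MafLSEC-KO, or 22.7 ± 2.03 and 3.40 ± 0.558 CPM (log2 fold change -2.75, SE 0.19). It is the lead peak nearest to the start of its gene, at 24.3 kb, and carries TGCTGAC close to its centre. Peak 1 had 146, 283, 163 and 387 counts in controls and 68, 160, 139 and 153 in MafLSEC-KO (log2 fold change -1.18, SE 0.16). Peak 3 had 113, 133, 91 and 208 counts in controls and 71, 140, 75 and 153 in MafLSEC-KO (log2 fold change -0.62, SE 0.19), or 17.2 ± 2.28 and 11.1 ± 2.46 CPM. The groups were separated in all 3, in peak 3 with 15.7 CPM in the lowest control and 13.1 CPM in the highest knockout library. The call of peak 3 was lost without MafLSEC-KO replicate 1 (edgeR adjusted p = 0.0708), MafLSEC-KO replicate 3 (0.113), control replicate 1 (0.0748), control replicate 2 (0.0615), or control replicates 1 and 3 together (0.0662).

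The reduction extended to peaks annotated to the neighbouring gene. Within 100 kb of the C330024D21Rik lead peak, 5 of 5 further tested peaks were called lower, beside 6.45% of all tested peaks. Of the 5, 3 were annotated to Bend4, a BEN domain gene on the opposite strand. The numbering skips 3 peaks within the range of the C330024D21Rik peaks, and nothing is read from this count. The Bend4 peak 50.5 kb away had 8.99 ± 1.16 CPM in control LSECs and 2.17 ± 0.378 CPM in MafLSEC-KO (log2 fold change -2.03, SE 0.24). The other two had log2 fold changes of -0.76 (SE 0.16) and -0.85 (SE 0.16). The Bend4 sum over 4 peaks was 63.5 ± 3.81 CPM in control LSECs and 32.4 ± 3.32 CPM in MafLSEC-KO (log2 fold change -0.96, SE 0.11).

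**Figure D3:**
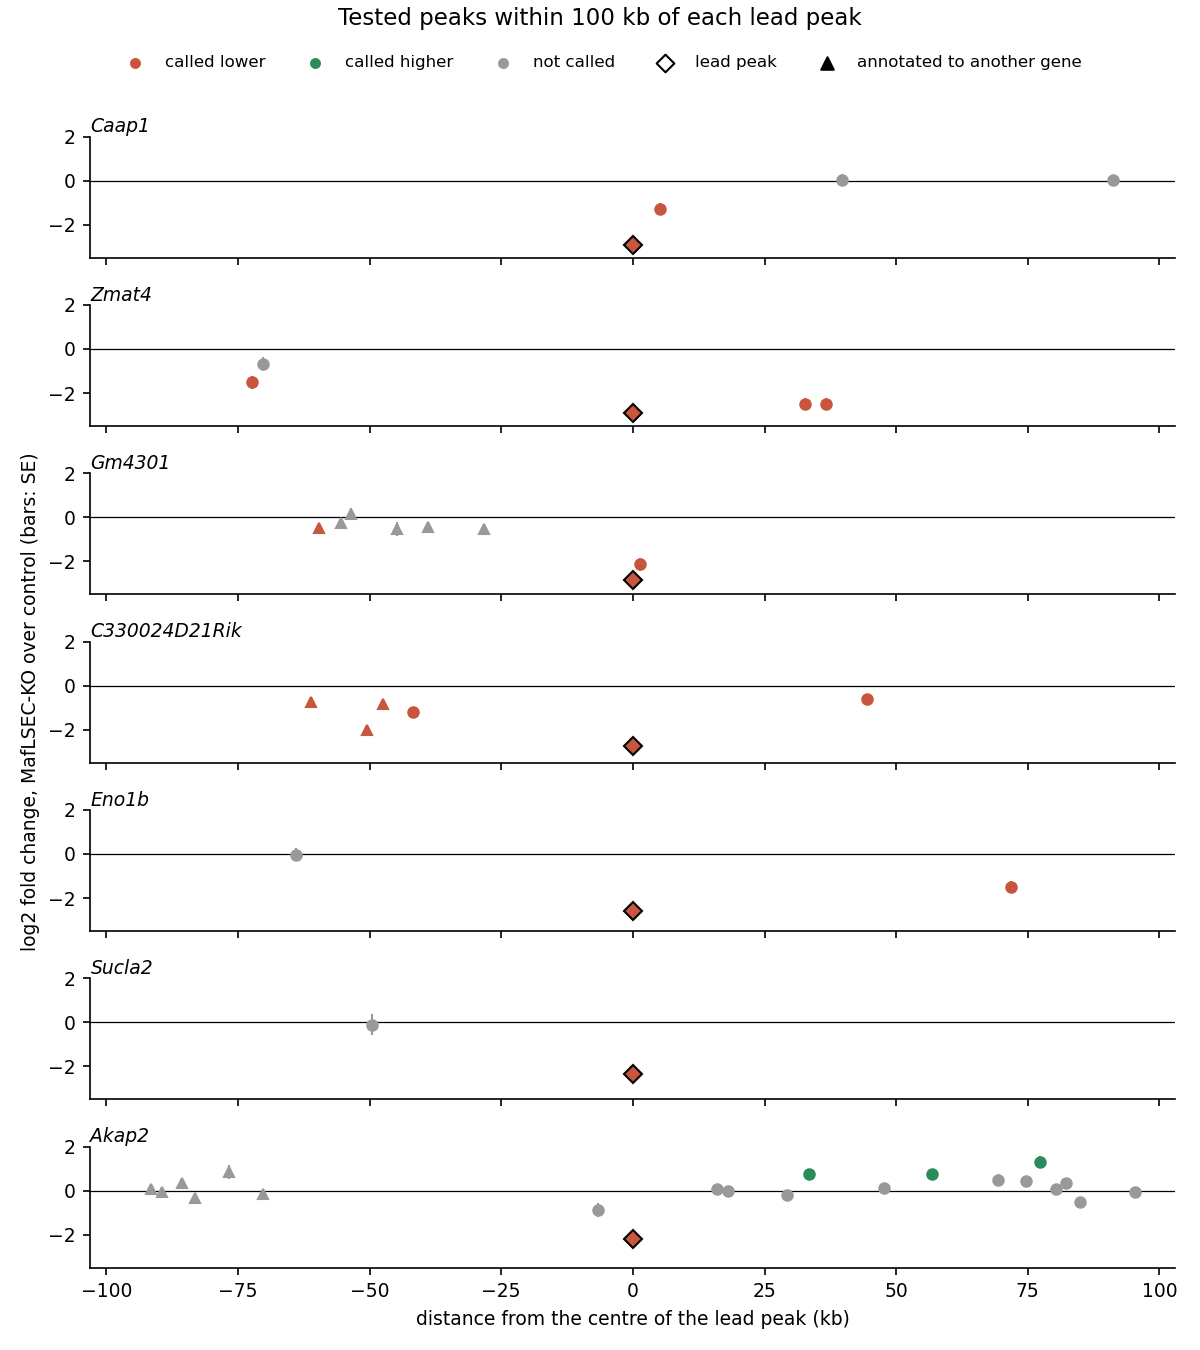
Log2 fold change (y axis, bars SE) of every tested peak within 100 kb of the centre of each lead peak (x axis, kb). Circles are annotated to the same gene, triangles to another gene, diamonds are the lead peaks. The 5 peaks around the C330024D21Rik lead peak are all below zero, whereas the 20 around the Akap2 lead peak lie on both sides of it.

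Caap1 had the strongest lead peak in controls, and 1 of its 4 other peaks, a nearby one, was called lower. The lead peak (peak 1, chr4:94385517-94386232, intergenic, 171 kb from the start) had 153, 326, 225 and 542 counts in controls and 33, 52, 39 and 70 in MafLSEC-KO. This was 37.1 ± 6.25 CPM in control LSECs and 4.93 ± 0.784 CPM in MafLSEC-KO (log2 fold change -2.91, SE 0.18). Control replicate 1, at 27.8 CPM, lay below the other controls (39.3 to 40.8 CPM) but far above all knockout libraries. In GENCODE M21 the lead peak lies inside the long intergenic noncoding RNA gene Gm12648.

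Peak 2 of Caap1, 4472 bases away, had 39, 56, 36 and 98 counts in controls and 22, 22, 37 and 27 in MafLSEC-KO, or 6.93 ± 0.461 and 2.86 ± 0.849 CPM (log2 fold change -1.29, SE 0.26). Peaks 3 and 4 had 4.54 ± 0.778 and 44.8 ± 4.2 CPM in control LSECs and 4.62 ± 1.10 and 44.9 ± 6.71 CPM in MafLSEC-KO, with log2 fold changes of 0.03 (SE 0.26) and 0.01 (SE 0.13). The peak over the start of Caap1 (peak 5) had 193, 323, 206 and 426 counts in controls and 195, 303, 291 and 346 in MafLSEC-KO, or 35.8 ± 3.35 and 29.2 ± 1.05 CPM. Its groups did not overlap, by a narrow margin (lowest control 32.1 CPM, highest knockout 30.4 CPM), but it was not called (log2 fold change -0.29, SE 0.13, edgeR adjusted p = 0.125).

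The 2 most depleted Eno1b peaks were those farthest from the gene. The lead peak (peak 5, chr18:48700601-48701462, intergenic) had 138, 228, 124 and 242 counts in controls and 34, 33, 44 and 38 in MafLSEC-KO, or 23.3 ± 4.37 and 3.97 ± 0.980 CPM (log2 fold change -2.57, SE 0.21). It lies 656 kb from the start of Eno1b, the longest distance among the lead peaks and the 99.4th percentile of all tested peaks. Peak 6, 71.1 kb further, had 48, 59, 38 and 71 counts in controls and 19, 25, 32 and 18 in MafLSEC-KO, or 7.01 ± 1.41 and 2.50 ± 0.768 CPM (log2 fold change -1.49, SE 0.28). Peak 4, on the near side of the lead peak at 63.4 kb, had 5.22 ± 2.38 CPM in control LSECs and 5.05 ± 1.38 CPM in MafLSEC-KO (log2 fold change -0.04, SE 0.30).

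Peaks 1 to 3 lie upstream of Eno1b within an intron of another, noncoding transcript. Peak 1 had 70, 128, 95 and 166 counts in controls and 71, 93, 104 and 101 in MafLSEC-KO, or 14.4 ± 2.13 and 9.63 ± 1.21 CPM, and was called lower (log2 fold change -0.58, SE 0.18). That call was lost without MafLSEC-KO replicate 2 (edgeR adjusted p = 0.117), MafLSEC-KO replicate 4 (0.0868), control replicate 2 (0.0993) or control replicate 3 (0.0709). Peak 2 had 6.49 ± 0.920 CPM in control LSECs and 5.60 ± 1.04 CPM in MafLSEC-KO. Peak 3, the nearest to the Eno1b start at 8.56 kb, had 26.3 ± 3.85 CPM in control LSECs and 29.9 ± 1.29 CPM in MafLSEC-KO. Neither of these was called (log2 fold changes -0.22, SE 0.23, and 0.19, SE 0.14). Without control replicates 1 and 3, the log2 fold change of peak 3 was 0.36 (SE 0.15) and it was not called.

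Sucla2 combined a depleted distal peak with a gene start of nearly equal accessibility. The lead peak (peak 3, chr14:73838151-73839327, the widest lead peak at 1176 bases) had 158, 293, 205 and 396 counts in controls and 58, 62, 62 and 65 in MafLSEC-KO, or 32.7 ± 4.0 and 6.57 ± 1.38 CPM (log2 fold change -2.33, SE 0.18). It lies 286 kb from the start of Sucla2 and, in GENCODE M21, inside the long intergenic noncoding RNA gene Gm49164. The peak over the annotated Sucla2 start (peak 1) had 145, 174, 138 and 305 counts in controls and 174, 257, 219 and 254 in MafLSEC-KO, or 23.8 ± 1.99 and 23.5 ± 1.68 CPM (log2 fold change -0.02, SE 0.14). Peak 2, wholly within repeat sequence, had only 7 to 19 counts per library in controls and 12 to 15 in MafLSEC-KO, and its log2 fold change of -0.11 had an SE of 0.46. Differences within that error were not detectable at this depth.

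Akap2 had 17 peaks, of which the lead peak was the only one called lower, and 3 were called higher. The lead peak (peak 2, chr4:57764529-57765349) had 111, 206, 113 and 340 counts in controls and 30, 56, 51 and 59 in MafLSEC-KO, or 22.8 ± 3.27 and 4.99 ± 0.393 CPM (log2 fold change -2.19, SE 0.18). It lies in intron 6 of 8 of the long transcript that joins Palm2 and Akap2 (named Pakap in RefSeq), 80.3 kb before the start of the short Akap2 transcript. The deposited annotation places it in a SINE of the B4 family, while repeat-masked bases made up 13.9% of the peak. Without control replicates 1 and 3 the log2 fold change of this lead peak was -2.36.

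The peaks with higher accessibility lay between the lead peak and the short transcript's start. Peak 6 had 58, 141, 73 and 253 counts in controls and 165, 276, 280 and 282 in MafLSEC-KO, or 15 ± 3.99 and 25.8 ± 2.39 CPM (log2 fold change 0.76, SE 0.18). Peak 8 had 25, 45, 24 and 71 counts in controls and 60, 96, 68 and 102 in MafLSEC-KO, or 4.92 ± 0.662 and 8.38 ± 0.852 CPM (log2 fold change 0.75, SE 0.21). Peak 11 had 22, 16, 14 and 55 counts in controls and 43, 120, 55 and 96 in MafLSEC-KO, or 3.14 ± 1.09 and 7.84 ± 2.39 CPM (log2 fold change 1.30, SE 0.29). In each of these 3 peaks, every MafLSEC-KO library was above every control library, as in 11.2% of all tested peaks. Without control replicates 1 and 3, the log2 fold change of peak 6 was 0.48 (SE 0.17, edgeR adjusted p = 0.0418). The call of peak 8 was lost without MafLSEC-KO replicate 1 (edgeR adjusted p = 0.0563), replicate 2 (0.0659) or replicate 4 (0.0535), and without control replicates 1 and 3 together (0.0851).

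The other 13 Akap2 peaks were not called, and their log2 fold changes ran from -0.88 to 0.48. The peak at the start of the short transcript (peak 12) had 195, 275, 192 and 485 counts in controls and 234, 451, 356 and 403 in MafLSEC-KO, or 34.9 ± 1.32 and 36.9 ± 3.36 CPM (log2 fold change 0.08, SE 0.12). The lowest of the 13 was peak 1, the nearest neighbour of the lead peak at 6191 bases, with 41, 34, 27 and 73 counts in controls and 10, 25, 49 and 32 in MafLSEC-KO (log2 fold change -0.88, SE 0.33, edgeR adjusted p = 0.0796). Its MafLSEC-KO replicate 3 lay within the control range, at 5.12 CPM, and without that library the adjusted p was 0.0167. With the replicate number as a block, the adjusted p was 0.0128 for peak 1, 0.0304 for peak 14 (log2 fold change -0.51), 0.0263 for peak 17 (-0.51) and 0.0259 for peak 10 (0.43). Peaks 1, 14 and 17 were also called lower with the log2 of the total count as a covariate (edgeR adjusted p = 0.0318, 0.00763 and 0.0323). Peaks 10 and 13 were also called higher without control replicate 4 (0.0201 and 0.0452), peak 17 lower without MafLSEC-KO replicate 4 (0.0367), and peaks 5 and 14 lower without control replicates 1 and 3 (0.0425 and 0.0186). Without those 2 libraries, the log2 fold changes of peaks 10, 13 and 16, none of them called, went from 0.42 to 0.23, from 0.35 to 0.12 and from -0.09 to -0.31.

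**Figure D4:**
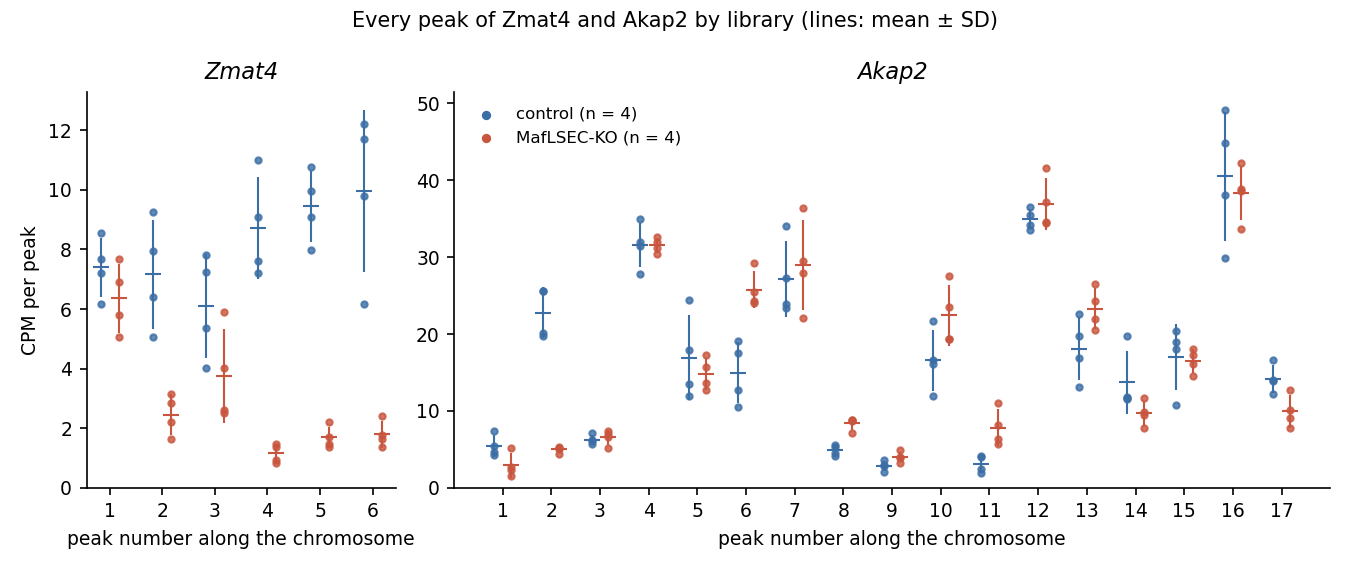
CPM of each peak of Zmat4 (left) and Akap2 (right) in order along the chromosome, with 1 point per library (control in blue, MafLSEC-KO in red, 4 each) and lines for the mean ± SD. In Zmat4, peaks 2, 4, 5 and 6 are separated downward, whereas in Akap2 this holds for peak 2 alone and peaks 6, 8 and 11 are separated upward.

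Whether the remaining peaks followed the lead peak was also expressed as sums. Over all peaks of a gene, 6 of the 7 genes were called lower and Akap2 was not, in a contrast in which 4.05% of 17745 gene sums were called lower, 5.65% higher and 7.18% had all MafLSEC-KO libraries below all controls. With the replicate number as a block, 1917 gene sums in place of 718 were called lower and 2158 in place of 1002 higher, and the calls of the 7 genes were as before. The log2 fold changes of the sums were -2.69 for Gm4301, -1.53 for Zmat4, -1.36 for C330024D21Rik, -0.91 for Sucla2, -0.60 for Caap1, -0.57 for Eno1b and -0.02 for Akap2, with SEs of 0.09 to 0.15. As the sums contain the lead peaks and served in the selection, they are descriptions.

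Without the lead peak, the sum of the remaining peaks was called lower for Zmat4, Gm4301 and C330024D21Rik and was not called for the other four genes. The sum of the other peaks was 40.5 ± 2.64 CPM in control LSECs and 15.9 ± 1.1 CPM in MafLSEC-KO for Zmat4 (log2 fold change -1.35, SE 0.12). It was 47.4 ± 2.59 and 23.9 ± 3.18 CPM for C330024D21Rik (-0.98, SE 0.12), and for Gm4301 it was the single peak 2 described above (-2.15, SE 0.31, in the fit of sums). For Caap1 it was 92.9 ± 5.82 and 80.8 ± 8.02 CPM (-0.20, SE 0.10), and for Eno1b 60.0 ± 6.83 and 52.3 ± 4.32 CPM (-0.20, SE 0.11). Sucla2 had 25.6 ± 2.02 and 24.7 ± 2.18 CPM (-0.05, SE 0.12), and Akap2 had 271 ± 30.7 and 285 ± 13.1 CPM (0.07, SE 0.09). In these last 4 genes the groups of libraries overlapped in the sum, although single other peaks were called lower in Caap1 (1) and Eno1b (2) and higher in Akap2 (3). Without control replicates 1 and 3 the sum without the lead peak was -0.03 for Akap2 and -0.07 for Eno1b on the log2 scale.

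The lead peak made up a smaller share of its gene's counts in MafLSEC-KO in each case. Its share was 56.5% in controls and 20.5% in MafLSEC-KO for Sucla2, 32.7% and 11.9% for C330024D21Rik, 29.7% and 5.78% for Caap1, and 28.1% and 6.83% for Eno1b. It was 17% and 6.55% for Zmat4 and 7.84% and 1.71% for Akap2. For Gm4301, where both peaks were depleted, the share was 79.9% and 71.2%.

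**Figure D5:**
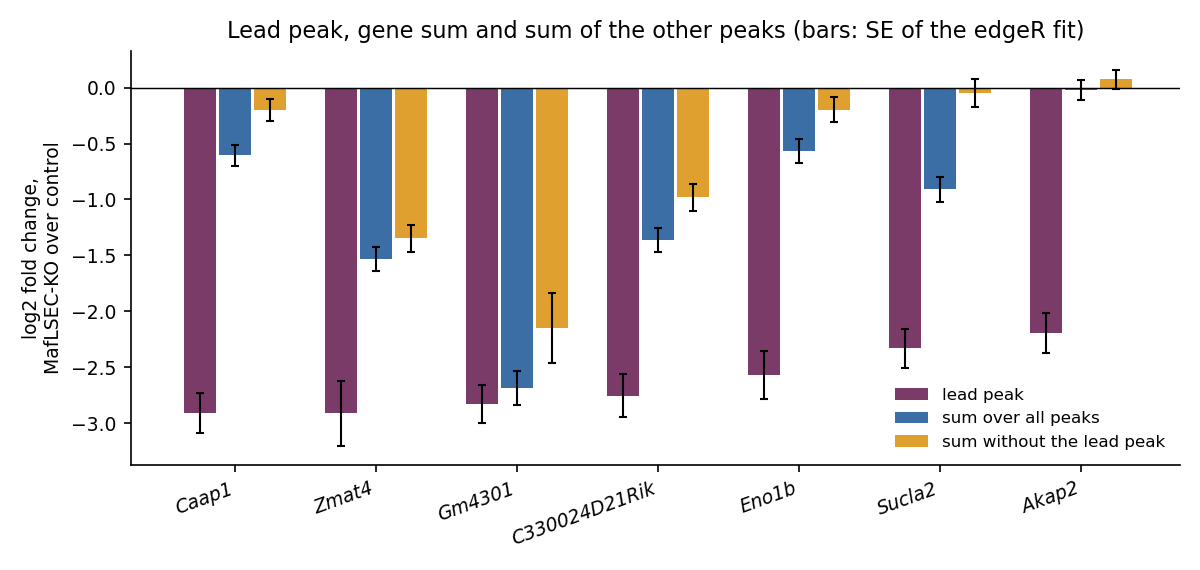
Log2 fold change (MafLSEC-KO over control, bars SE) of the lead peak, of the sum over all peaks and of the sum without the lead peak for each gene. The sum without the lead peak is well below zero for Zmat4 (-1.35), Gm4301 (-2.15) and C330024D21Rik (-0.98), and near zero for Sucla2 (-0.05) and Akap2 (0.07, or -0.03 without control replicates 1 and 3).

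Position and base composition of the lead peaks were not used in the selection. Their distance to the start of the gene they were annotated to was 24.3 to 656 kb, between the 59.6th and 99.4th percentile of distance among tested peaks, and 5 of the 7 were annotated as intergenic and 2 as intronic. Their GC content was 37.8% to 51.2%, with 49.1% as the median of tested peaks, and of the 7 only C330024D21Rik exceeded that median. Repeat-masked bases made up 0% to 15.5%, on both sides of the median of 9.95% over tested peaks. Distances to a gene's start follow the RefSeq transcripts of the deposited annotation. GENCODE M21 has a start further upstream for Sucla2, Zmat4 and Akap2, which puts the lead peaks at 313, 321 and 47.3 kb from it. GENCODE M21 also places starts of other transcripts nearer to some lead peaks, such as the noncoding Gm12526 at 1.04 kb from that of Akap2, Gm47627 at 5.10 kb from that of Gm4301 and the pseudogene Gm12654 at 9.78 kb from that of Caap1. The 3 peaks over an annotated transcript start of their own gene, those of Caap1, Sucla2 and, at its short transcript, Akap2, had log2 fold changes of -0.29, -0.02 and 0.08 and were not called. Within 100 kb of the lead peaks, 12 of 42 further tested peaks were called lower, 3 higher and 27 were not called, beside 6.45% lower and 8.97% higher over all tested peaks, and with the replicate block 17 were called lower and 4 higher. Most of these peaks belong to the same 7 genes, and nothing is read from the shares.

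Genes of the same families and pathways were read from their own peak sums. Over all gene sums, 4.05% were called lower and 5.65% higher, and the replicate block called more of both, as given above. Nothing is read from the counts of called genes. Among A-kinase anchoring proteins, 11 of 13 had tested peaks and Akap6 alone was called, as higher (log2 fold change 0.44, SE 0.08), while the replicate block also called Akap13 higher and Akap7 lower (edgeR adjusted p = 0.0368 and 0.0267). Among the enolases, Eno4 was called higher (0.53, SE 0.12) and Eno1, the glycolytic alpha-enolase, was not (0.06, SE 0.10). The partners of Sucla2, Suclg1 (alpha subunit) and Suclg2 (GTP-forming beta subunit), had log2 fold changes of 0.14 (SE 0.12) and 0.24 (SE 0.13) and were not called, although Suclg2 was called higher with the replicate block (edgeR adjusted p = 0.0209). Of the 12 genes of intrinsic apoptosis and the 4 other ZMAT genes, 0 were called by edgeR or DESeq2 and 0 had an unadjusted edgeR p under 0.05, but Bcl2l1 was called higher with the block (adjusted p = 0.0411), with median log2 fold changes of 0.04 and 0.01 against -0.02 over all gene sums. Along the chromosome, Tek, which encodes the angiopoietin receptor and starts 353 kb from the Caap1 lead peak, had a sum of 206 ± 18.2 CPM in control LSECs and 206 ± 3.27 CPM in MafLSEC-KO. Palm2, next to Akap2, had 166 ± 9.04 and 160 ± 7.84 CPM, and neither sum was called. In each of these genes, 1 of 9 peaks was called lower and 0 higher, beside 6.45% lower and 8.97% higher over all tested peaks.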

How the data were processed

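ATAC-seq was performed on 4 control and 4 MafLSEC-KO libraries. The authors aligned trimmed reads to mm10 with Bowtie2, removed duplicates and called peaks with MACS2. Blacklisted regions were dropped, the control and MafLSEC-KO peaks were joined and their reads counted with bedtools 2.30.0, and HOMER 4.11 gave the annotation. Whether peaks were called per library or on pooled reads is not given plainly in the sources used here. The deposited table holds raw counts, a size-factor normalized signal and RPKM per library. It also holds the authors' fold changes and p-values from DESeq2 1.42.1, which were not used. It lists 58522 peaks with numbers up to 78026, the smallest summed RPKM being 48.4. Listed coordinates were taken as given.

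Raw counts were fitted with edgeR 4.0.16 in R 4.3.3 (TMM, filterByExpr, quasi-likelihood test, group only, two-sided, Benjamini-Hochberg over 58268 peaks or 17745 gene sums, threshold 0.05). The filter removed 254 peaks, and 68 peaks without a gene name entered no sum. SEs are the absolute log2 fold change over the root of the quasi-likelihood F, and CPM values are TMM-scaled means ± SD. Alternatives were RLE size factors in edgeR, the test of DESeq2 1.42.0, total counts, no filter, leaving out libraries, log2 total as a covariate and the replicate number as a block. Deviations from the group means, over peaks, correlated between same-numbered libraries (r = 0.195, 0.104, 0.263 and 0.453 for numbers 1 to 4). Between libraries of different number, r ran from -0.330 to 0.217, the highest for control replicate 1 with MafLSEC-KO replicate 3. A pairing by number was assumed for the block and is not established by these values. In each group replicate 4 was the deepest library and replicates 1 and 3 were the shallowest. Whether the correlations follow depth was not tested. The labels state no shared litter, batch or day, and 6 of 8 libraries correlated best with their own number. Motifs were searched on both strands of GRCm38.p6, distances to a member's start are those of the deposited annotation, and positions of neighbouring genes came from GENCODE M21.

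The 7 genes, the gene lists and the motifs were chosen with earlier results of these data known. Genes named beside the 7 are Maf, the cell type markers, neighbours of a lead peak and members of the lists of related genes. Sequence on the chromosome of Eno1b is not reported here. Before use, the fits were tested on simulated counts.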

Additional observations from a re-analysis of the deposited data

Results flagged for a closer look

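Of 98 groups of 4 libraries examined, 3 held 1 library far from the other three, and chance gives about 1 in 20. In the Caap1 lead peak, control replicate 1 had 27.8 CPM while the other controls had 39.3 to 40.8 CPM. In Akap2 peak 8, MafLSEC-KO replicate 3 had 7.10 CPM while the others had 8.70 to 8.85 CPM. In Akap2 peak 14, control replicate 4 had 19.8 CPM while the others had 11.6 to 11.8 CPM.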

How the results depend on the processing

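Each of 56 values (42 peaks, 7 gene sums and 7 sums over the other peaks) was recomputed under 15 alternatives. The 7 lead peaks, the 7 gene sums and the 7 sums over the other peaks kept their call under all 15, and 0 called values changed sign. Calls changed in 28 of 840 values, all in single peaks other than the lead peaks. The replicate block changed the call of Zmat4 peak 3 and of Akap2 peaks 1, 10, 14 and 17, given with those genes, no other call among the 56 values, and the calls of list genes and neighbours as given with them. The log2 total as a covariate changed the calls of Zmat4 peak 3 and Akap2 peaks 1, 14 and 17. Of the 42 peaks, 14 to 20 were called lower and 2 to 5 higher.

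Counts over the whole table moved more. With the replicate block, 6258 peaks were called lower and 8264 higher, and 1917 and 2158 gene sums. With the log2 total as a covariate these were 6592 and 8574 peaks, and 1975 and 2312 gene sums. Without control replicates 1 and 3 together, 1290 gene sums were called lower and 1626 higher. Leaving out each replicate in turn gave 2487 to 4725 peaks lower and 3349 to 5702 higher, and 401 to 1356 gene sums lower and 502 to 1471 higher. Counts of gene sums moved by over 1.5 times without MafLSEC-KO replicate 1 (443 lower, 612 higher), 2 (401, 521) or 3 (461, 602) and without control replicate 2 (413, 502), and the lower ones without control replicate 4 (1356). For peaks this held for those called lower without MafLSEC-KO replicate 2 (2487) and those called higher without control replicate 2 (3349). The cause of these shifts was not tested. At the lowest depths, such as Sucla2 peak 2 with 7 to 19 counts per library, small differences were not detectable.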
